A study of Homo sapiens with 9 samples.

Results

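The KLHL genes encode BTB-Kelch proteins, substrate adaptors of ubiquitin ligases. A KLHL protein binds the scaffold CUL3 through its BTB domain and holds a substrate on its Kelch propeller, so that each adaptor lends the same ligase another target. The members were the protein-coding genes whose symbol is KLHL followed by a number, 35 of the 30956 genes in the table. The question was how far their mRNAs co-purified with CCR4-NOT, the complex whose nucleases shorten poly(A) tails.

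The libraries were made from HEK293T, a human embryonic kidney cell line whose labelled RNA is cytoplasmic. RIP, or RNA immunoprecipitation, used V5-tagged CNOT7, a nuclease subunit with a substitution that impairs catalysis, and gave 3 libraries. The labels list 6 input libraries, 3 after 24 h of doxycycline at 3 µg/mL and 3 with no doxycycline. The table has columns for 3 inputs, whose names match both kinds, so their doxycycline state is not known here, nor is that of the cells behind the RIP libraries. No immunoprecipitate from untagged cells was analysed here, and the labels do not say whether replicates were separate cultures. The p-values therefore cover only how these libraries varied, which may be technical.

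The RIP libraries held 37140622 to 40764899 reads in genes and the inputs 37290120 to 38918356. RIP replicate 2 stood apart at low counts, with 14786 genes at 0 against 6720 and 6398 in replicates 1 and 3. Transcripts of the mitochondrial genome took 1.03% ± 0.09 of the normalized counts in RIP and 22.7% ± 4.0 in input (SD, n = 3 each), from 18.6% to 26.6% in the inputs. All 7 HEK293T markers (PAX2, NEFL, NEFM, INA, KRT8, KRT18 and VIM) had 265 to 31429 normalized counts in every input library. CNOT7, the precipitated protein's own gene, had 79593 to 100226 normalized counts in RIP and 24412 to 25361 in input. CNOT1, another gene of the complex, was also higher in RIP, with 143392 to 145953 against 31695 to 39601 in input. Of the markers of other cells, ALB had 0 in each input, while COL1A1 had 375 to 545.

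KLHL mRNAs were recovered above input as a family. The authors' deposited table gives an adjusted p for 31 members, of which 18 rose, 1 fell and 12 did not pass the test (DESeq2, adjusted p under 0.05). That is 58.1% enriched and 3.23% depleted, where 20.6% and 19.9% of all 20649 tested genes were. Among tested protein-coding genes the shares were 26.4% enriched and 26.1% depleted. The median log2 fold of RIP over input by the authors' deposited table was 0.90 over the members and -0.079 over all tested genes. At least 2-fold enrichment was called for 10 members (32.3%) and for 10.3% of all tested genes by the authors' deposited table.

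How many reads a gene had bears on whether it could be called. Of the 26 members with a mean of at least 100 normalized counts, 17 (65.4%) were enriched and 1 depleted by the authors' deposited table. Protein-coding genes with such a mean were enriched in 31.8% of cases and depleted in 31.9%. Every RIP library lay above every input library for 20 of the 31 members (64.5%), including all 18 enriched ones, and for 22.5% of all tested genes. One member, KLHL5, had every RIP library below every input library, as did 23.5% of all tested genes.

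Summed over the family, the normalized counts were 68694, 69624 and 61725 in the RIP libraries, against 41301, 37965 and 35573 in the input libraries. The groups did not overlap, and the sum was 1.74 times as high in RIP. As CPM, counts scaled to library totals in genes, the family had 2195 ± 121 in RIP and 898 ± 115 in input (SD, n = 3 each), 2.44 times as high. The library totals behind the second scaling include the mitochondrial RNA. The library with the lowest KLHL sum among the inputs had the highest mitochondrial share, and its part in the sums was not tested. These are bulk libraries, so RNA in fewer cells and less RNA per cell cannot be told apart.

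**Figure D1:**
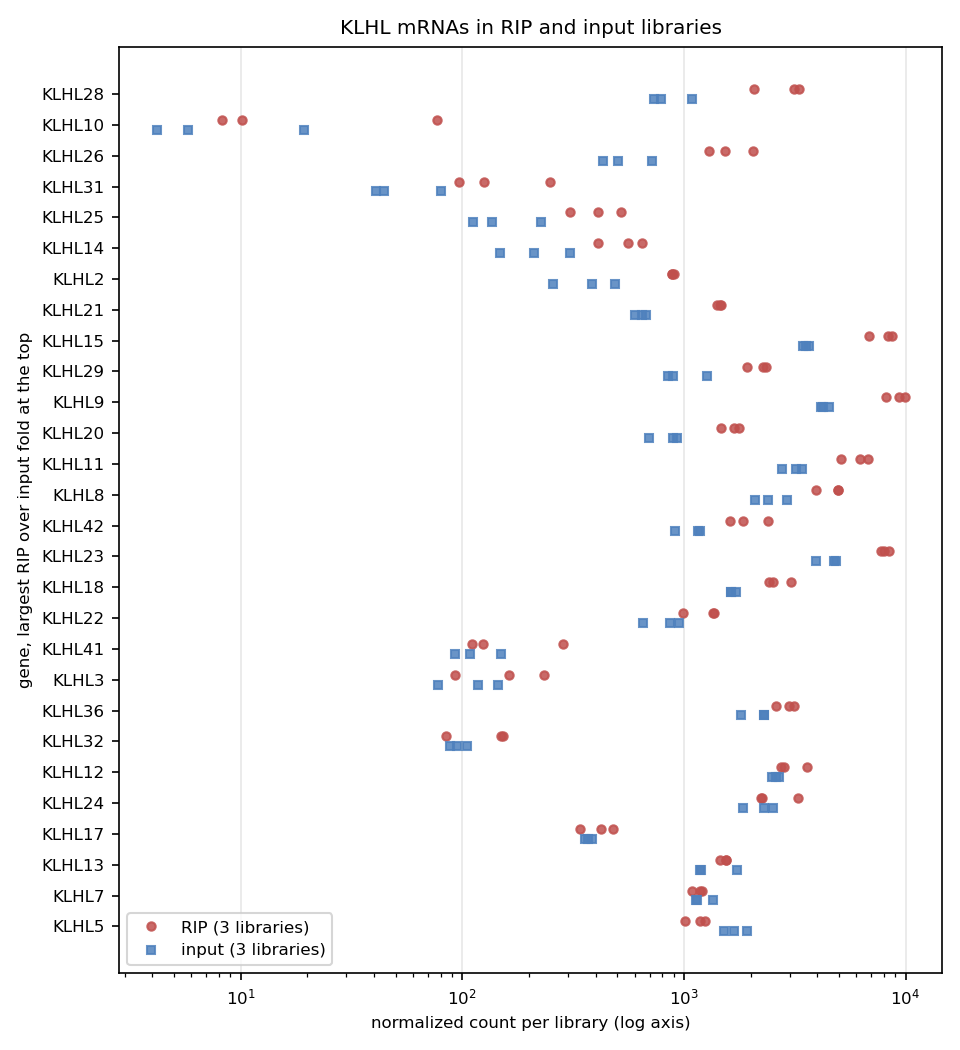
Normalized count (x axis, log scale) of the 28 KLHL mRNAs with reads in all 6 libraries, 1 row per gene ordered by RIP over input fold; circles are the 3 RIP libraries and squares the 3 input libraries. The circles of KLHL28, KLHL26, KLHL15 and KLHL9 lie clear to the right of their squares, those of KLHL7 and KLHL13 are mixed with them, and those of KLHL5 lie to the left.

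Adaptors with roles in mitosis and the cell cycle formed a first group, of which 5 of 6 rose by the authors' deposited table, with a median log2 fold of 0.76. Beside this and the later groups stand the shares of all tested protein-coding genes, 26.4% enriched and 26.1% depleted. KLHL9 and KLHL13 are close relatives that work together with CUL3 to remove the kinase Aurora B from mitotic chromosomes, and KLHL21 directs CUL3 to Aurora B later, on the anaphase spindle. KLHL9 (chromosome 9, 21329665 to 21335404, GRCh38.p14) had 9906, 9369 and 8147 normalized counts in the RIP libraries, against 4521, 4169 and 4246 in input. All its RIP values were far above all its input values. Its log2 fold from the authors' deposited table was 1.08 (SE 0.11, adjusted p = 4.0e-23). KLHL13 (chromosome X, 117897813 to 118117340), by contrast, had 1543, 1550 and 1449 in RIP, against 1741, 1181 and 1199 in input. One input library exceeded all RIP libraries, and the log2 fold of 0.14 (SE 0.18) by the authors' deposited table did not pass the test (adjusted p = 0.61). The 95% intervals of the log2 folds from the authors' deposited table were 0.88 to 1.29 for KLHL9 and -0.22 to 0.50 for KLHL13, and do not meet, though the difference itself was not tested. With DESeq2 refitted, KLHL13 had a log2 fold of 0.33 without the first input column (adjusted p = 0.12). It had 0.03 without the second and 0.04 without the third. Over the labelled libraries without a column, known only through a mean, the log2 ratios were 1.16 for KLHL9 and 0.60 for KLHL13, and were not tested. Reads of such relatives can be split between them by the counting. KLHL21 had 1462, 1465 and 1411 in RIP, against 601, 671 and 648 in input, among the tightest values of the family. Its log2 fold from the authors' deposited table was 1.18 (SE 0.14, adjusted p = 5.6e-15).

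The other mitotic adaptors rose by less. KLHL18, which acts on the kinase Aurora A at mitotic entry, had 2535, 3038 and 2413 normalized counts in RIP, against 1716, 1634 and 1628 in input. The groups lay apart, with a log2 fold of 0.68 (SE 0.13, adjusted p = 5.8e-07) by the authors' deposited table. KLHL42, an adaptor for the microtubule-severing enzyme katanin, had 1844, 2399 and 1609 in RIP, against 1160, 1186 and 912 in input. It had a log2 fold of 0.84 (SE 0.17, adjusted p = 6.3e-06) by the authors' deposited table. KLHL22 frees kinetochores from the kinase PLK1 and targets DEPDC5, a brake on mTORC1. It had 992, 1365 and 1355 in RIP, against 653, 869 and 955 in input, where the lowest RIP value stood just above the highest input value. The log2 fold of KLHL22 by the authors' deposited table was 0.58 (SE 0.20, adjusted p = 0.0084). With DESeq2 refitted on the recovered reads of all 6 libraries, KLHL22 had an adjusted p of 0.029. In that refit KLHL22 no longer passed without RIP replicate 2 (adjusted p = 0.067) or 3 (0.131), or without the first (0.141) or the second (0.063) input column.

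Adaptors for signalling, secretion, translation and phosphatase substrates came next, and 5 of 8 rose by the authors' deposited table (median log2 fold 0.94). KLHL15, which sends the PP2A subunit PPP2R5B for degradation, lies on chromosome X (23983720 to 24027186). It had 8295, 8732 and 6838 normalized counts in RIP, against 3685, 3465 and 3552 in input. The inputs were nearly level and every RIP library stood well above them. The log2 fold was 1.16 (SE 0.13, adjusted p = 2.6e-17) by the authors' deposited table. KLHL25, an adaptor for the translation inhibitor 4E-BP1, was among the scarcer members, with 411, 308 and 519 in RIP, against 112, 136 and 227 in input. Its log2 fold from the authors' deposited table was 1.38 (SE 0.32, adjusted p = 6.7e-05). KLHL20, whose known targets include the kinase DAPK1 and the nuclear body protein PML, had 1782, 1466 and 1683 in RIP, against 892, 927 and 693 in input. Both groups were tight and apart, with a log2 fold of 0.97 (SE 0.20, adjusted p = 4.5e-06) by the authors' deposited table. KLHL8, known in Caenorhabditis elegans for turnover of the synaptic protein rapsyn, had 4938, 4946 and 3946 in RIP, against 2933, 2390 and 2092 in input. The authors' deposited table gave it a log2 fold of 0.90 (SE 0.15, adjusted p = 4.3e-08).

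KLHL2 and KLHL3 are related adaptors for WNK kinases, which control salt transport, and KLHL3 is mutated in a familial form of hypertension. KLHL2 (chromosome 4, 165207561 to 165323156) had 884, 881 and 901 normalized counts in RIP, against 487, 258 and 385 in input. Its RIP libraries were nearly equal while its inputs spread widely, and the log2 fold from the authors' deposited table was 1.24 (SE 0.24, adjusted p = 1.5e-06). KLHL3 (chromosome 5, 137617500 to 137736089) had 234, 92.4 and 163 in RIP, against 118, 77.7 and 145 in input. Its groups overlapped and its log2 fold of 0.52 (SE 0.38) by the authors' deposited table did not pass (adjusted p = 0.30). The intervals from the authors' deposited table, 0.77 to 1.71 for KLHL2 and -0.22 to 1.27 for KLHL3, overlap, and the difference was not tested.

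KLHL12 and KLHL7 had ample reads and still did not pass. KLHL12, through which CUL3 modifies the coat protein SEC31 on large secretory vesicles, had 2729, 2842 and 3579 normalized counts in RIP, against 2599, 2505 and 2696 in input. Its RIP libraries lay narrowly above its inputs. The log2 fold of KLHL12 by the authors' deposited table was 0.23 (SE 0.13, adjusted p = 0.16), with a 95% interval of -0.02 to 0.48. Mutations in KLHL7 cause a form of retinitis pigmentosa. KLHL7 had 1177, 1209 and 1090 in RIP, against 1347, 1136 and 1141 in input, with the groups mixed. Its log2 fold was -0.06 (SE 0.14, adjusted p = 0.80) by the authors' deposited table, with a 95% interval of -0.34 to 0.22. That interval lies below the lowest fold among the enriched members, 0.44 for KLHL36, but overlaps the interval of KLHL36, 0.17 to 0.71.

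**Figure D2:**
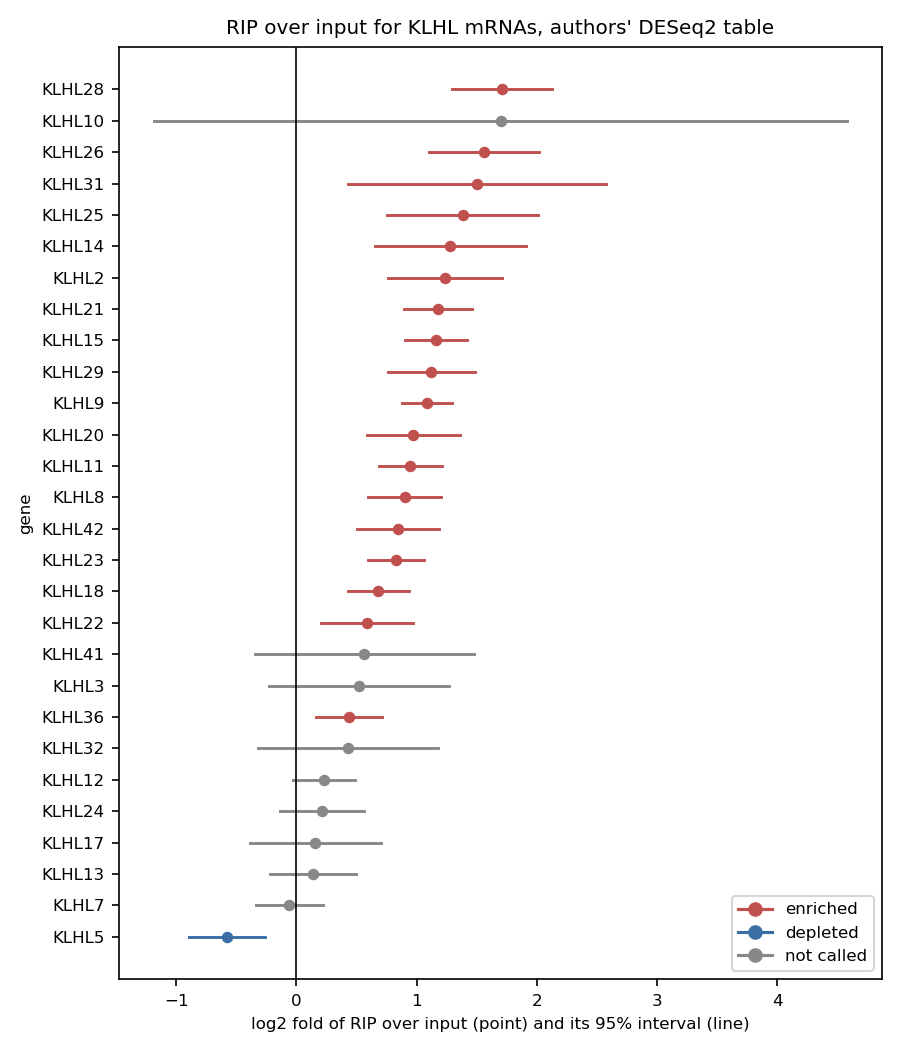
Log2 fold of RIP over input from the authors' deposited table (point) with its 95% interval (line) for the 28 KLHL genes with reads in all 6 libraries, coloured by the DESeq2 call at an adjusted p under 0.05. The 18 enriched genes lie between 0.44 and 1.71, KLHL5 lies at -0.57, and the interval of KLHL10 reaches from -1.19 to 4.58.

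Adaptors of muscle and of the cytoskeleton were mostly scarce or did not pass the test. Of the 10 members in this group 8 were tested, and by the authors' deposited table, 1 rose, 1 fell and 6 did not pass (median log2 fold 0.50). KLHL5 (chromosome 4, 39044827 to 39143101) was the 1 depleted member of the family. It had 1188, 1240 and 1014 normalized counts in RIP, against 1936, 1677 and 1512 in input. Every RIP library lay below every input library, and the log2 fold was -0.57 (SE 0.16, adjusted p = 0.0013) by the authors' deposited table. Scaling by total counts, which adds 0.50 to every fold, brought KLHL5 to -0.08 and off the list of calls (DESeq2 fold and SE, adjusted p = 0.76). Over the labelled libraries without a column, known only through a mean, the log2 ratio of KLHL5 was -0.13 and was not tested.

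KLHL31, needed for skeletal muscle in mice, had 126, 248 and 96.4 normalized counts in RIP, against 80.4, 44.5 and 40.7 in input. Replicate 2 held about as many normalized counts as both other RIP libraries together. Its log2 fold from the authors' deposited table was 1.505 (SE 0.55, adjusted p = 0.017), and 1.03 without RIP replicate 2 (DESeq2 refit, adjusted p = 0.15). KLHL31 also missed the threshold with edgeR (adjusted p = 0.057) and with limma on log2(value + 1) (adjusted p = 0.053). With all 6 libraries the DESeq2 refit gave KLHL31 an adjusted p of 0.022. Without RIP replicate 1, the second or the third input column the DESeq2 refit gave KLHL31 an adjusted p of 0.057, 0.081 and 0.098.

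KLHL24, whose gain of stability in skin leads to loss of keratin 14, had 3265, 2250 and 2226 normalized counts in RIP, against 2530, 2293 and 1851 in input. KLHL17, an actin-binding protein of neurons also called actinfilin, had 339, 422 and 481 in RIP, against 357, 371 and 385 in input. Both overlapped between groups, with log2 folds of 0.21 (SE 0.18) and 0.16 (SE 0.28) by the authors' deposited table and adjusted p of 0.38 and 0.72. KLHL41, a sarcomeric protein mutated in nemaline myopathy, had 111, 285 and 124 in RIP, against 150, 92.5 and 108 in input. Its log2 fold of 0.57 (SE 0.47) by the authors' deposited table did not pass (adjusted p = 0.37), and only RIP replicate 2 lay above all its inputs.

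At the low end the members rest on a handful of reads, and often on RIP replicate 2. KLHL4 had 0, 47 and 0 reads in the RIP libraries and none in the 3 inputs. Its summed RIP counts were 10.5 times a floor of 3 reads over the inputs. That ratio leaves out the spread between libraries, so it is no lower bound on enrichment. KLHL1, a neuronal actin-binding protein, had 2, 38 and 4 reads in RIP and none in input, a sum of 9.89 times the same floor, with the same limit. Of 4576 genes with a mean of 10 to 100 reads in RIP replicates 1 and 3, 55.0% had no read in replicate 2. Nearly all the KLHL4 and KLHL1 reads came from that library, and neither gene passed the test by the authors' deposited table (adjusted p = 0.25 for KLHL4 and 0.12 for KLHL1). Both ratios to the floor lie above the median fold of the members, so placing both genes there could not move the median log2 fold of 0.90. KLHL30 had 24, 0 and 47 reads in RIP, against 21, 0 and 17 in input, a log2 fold of 0.44 (SE 1.82) by the authors' deposited table with an adjusted p of 0.89. KLHL38 had 2, 0 and 0 reads in RIP and none in input. KLHL40, like KLHL41 a muscle protein linked to nemaline myopathy, had no read in any of the 6 libraries, which allows up to 2.48 normalized counts in a RIP library and 3.49 in an input.

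The last group holds lymphoid and germ cell adaptors together with less studied ones. Of its 11 members 9 were tested, and 7 rose, 0 fell and 2 did not pass by the authors' deposited table (median log2 fold 1.12). KLHL28 (chromosome 14, 44924324 to 44961947) had the largest fold of the enriched members, with 3313, 3156 and 2072 normalized counts in RIP, against 1092, 786 and 735 in input. Its lowest RIP library was well above its highest input. The log2 fold of KLHL28 was 1.71 (SE 0.21, adjusted p = 9.1e-15) by the authors' deposited table. KLHL26 (chromosome 19, 18637028 to 18671721) had 1303, 2042 and 1525 in RIP, against 504.2, 431 and 717 in input. It came next among the enriched members, at a log2 fold of 1.56 (SE 0.23, adjusted p = 2.3e-10) by the authors' deposited table.

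KLHL14, studied mainly in B cells, had 646, 409 and 557 normalized counts in RIP, against 210, 306 and 148 in input. Its groups lay apart though both were spread, with a log2 fold of 1.28 (SE 0.32, adjusted p = 2.7e-04) by the authors' deposited table. KLHL29 had 2271, 1931 and 2343 in RIP, against 1266, 847 and 893 in input, and a log2 fold of 1.12 (SE 0.18, adjusted p = 7.4e-09) by the authors' deposited table. KLHL23 had 7974, 8392 and 7715 in RIP, against 4768, 4881 and 3939 in input. The authors' deposited table gave KLHL23 a log2 fold of 0.83 (SE 0.12, adjusted p = 4.5e-11). In the RefSeq annotation its span is shared with the readthrough gene PHOSPHO2-KLHL23 on the same strand, so the counting can split or drop reads between them. KLHL36 had 2977, 2592 and 3140 in RIP, against 2310, 2307 and 1813 in input, the smallest enrichment that passed. Its log2 fold was 0.44 (SE 0.14, adjusted p = 0.0051) by the authors' deposited table. In the DESeq2 refit on all 6 libraries KLHL36 had an adjusted p of 0.021. In that refit it no longer passed without RIP replicate 1 (adjusted p = 0.068) or 3 (0.100), or without the third input column (0.104).

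KLHL10 and KLHL11 are neighbours on chromosome 17 that face each other. KLHL10, a testis protein needed for sperm formation, runs from 41835685 to 41848384 on the plus strand. KLHL11, the target of autoantibodies in a brain inflammation that accompanies testicular tumours, runs from 41848518 to 41865423 on the minus strand, 133 bp away. KLHL11 had 6259, 6771 and 5128 normalized counts in RIP, against 3410, 3215 and 2785 in input. Its log2 fold from the authors' deposited table was 0.95 (SE 0.13, adjusted p = 7.0e-12). KLHL10 had 8.28, 76.7 and 10.2 in RIP, against 4.18, 19.4 and 5.81 in input, high in RIP replicate 2 and in the second input column. The groups overlapped, and the log2 fold of 1.70 (SE 1.47) by the authors' deposited table did not pass (adjusted p = 0.40). KLHL10 also overlaps NT5C3B on the other strand, and the sources used here do not say whether counting used strand.

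KLHL32 had 153, 84.2 and 150 normalized counts in RIP, against 94.99, 87.9 and 105 in input. One RIP library lay below all its inputs, and the log2 fold of 0.43 (SE 0.38) by the authors' deposited table did not pass (adjusted p = 0.42). KLHL6, an adaptor of germinal centre B cells, had 6, 0 and 1 reads in RIP, against 0, 1 and 0 in input. KLHL35 had no read in these 6 libraries. The members without an adjusted p were KLHL6, KLHL35, KLHL38 and KLHL40, and none is counted in the tested 31.

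The 35 members lie on 20 chromosomes, 3 of them on X, and 20 of them overlap at least 1 other RefSeq gene. Enriched members that overlap a gene on the other strand include KLHL2 (GK3), KLHL20 (ANKRD45), KLHL29 (ATAD2B) and KLHL42 (MANSC4). Their counts share the open question of strand raised for KLHL10. Over the 31 tested members, the Spearman correlation of the log2 fold from the authors' deposited table with the input level was -0.38, where both share the input values. Its correlation with the genomic length of the gene was -0.01. Both are descriptions over genes that share the same libraries.

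The number of members called changed with the scaling. Under total-count scaling, 25 of the 31 members were enriched and 0 depleted, while 33.9% of all tested genes were enriched and 9.95% depleted (DESeq2 folds and SEs of the authors' deposited table, shifted by 0.50). The 7 added members were KLHL3, KLHL7, KLHL12, KLHL13, KLHL17, KLHL24 and KLHL32. KLHL7 turned from below 0 to 0.44 on the log2 scale in that setting. Scaling without small and mitochondrial RNA genes added only 0.13 to each fold. It gave 19 enriched members and 1 depleted, beside 23.8% and 16.9% of all tested genes. With edgeR's quasi-likelihood test on the recovered reads 29 members were tested, and 17 were enriched and 1 depleted, where 22.0% of 16811 genes were enriched and 20.4% depleted. All 17 were among the 18 enriched by the authors' deposited table, and the member lost was KLHL31.

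Related gene lists are set beside the shares of all tested protein-coding genes, 26.4% enriched and 26.1% depleted. Of 11 tested genes for other BTB-Kelch proteins, which have the same domains under other names, 10 rose and 0 fell by the authors' deposited table, with a median log2 fold of 1.06. KBTBD2, an adaptor for a regulatory subunit of PI3 kinase, had 4224 ± 341 normalized counts in RIP and 1205 ± 41 in input (SD, n = 3 each), a log2 fold of 1.81 (SE 0.13) by the authors' deposited table. ENC1 and KBTBD8 had 1.80 (SE 0.17) and 1.78 (SE 0.18) on the same scale by the authors' deposited table. KEAP1, the sensor of oxidative stress that controls NRF2, had 0.43 (SE 0.14) by the authors' deposited table. Of 12 other BTB adaptors of CUL3, 7 rose and 1 fell by the authors' deposited table (median log2 fold 0.45). RHOBTB1, KCTD2 and KCTD13 reached 0.74, 0.89 and 0.76 on the log2 scale by the authors' deposited table. Kelch genes that lack a BTB domain had a median of -0.16, with 1 of 7 rising (KLHDC10, 0.50) and 1 falling (KLHDC3, -1.07) by the authors' deposited table. KLHDC4 had -0.22 (adjusted p = 0.39) by the authors' deposited table.

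Genes for the CUL3 ligase core and for neddylation, the modification that switches cullins on, lay lower. In the authors' deposited table, 6 of 10 fell and 1 rose, with a median log2 fold of -0.42. The NEDD8-conjugating enzyme UBE2M had 4570 ± 945 normalized counts in RIP and 9727 ± 1372 in input (SD, n = 3 each), a log2 fold of -1.09 (SE 0.16) by the authors' deposited table. COPS5, which removes NEDD8, and NEDD8 itself had -1.10 (SE 0.22) and -1.33 (SE 0.27) by the authors' deposited table. CUL3, the scaffold the KLHL proteins share, had 3865 ± 546 in RIP and 4588 ± 386 in input (SD, n = 3 each). Its log2 fold of -0.25 (SE 0.13) by the authors' deposited table did not pass (adjusted p = 0.13). Among 11 genes for the remaining cullins and their linkers 6 fell and 0 rose by the authors' deposited table (median log2 fold -0.40), and the 3 with the smallest p, ELOB, DDB1 and CUL4B, had -2.23, -1.51 and -0.65. Of 18 tested genes for reported substrates or partners of KLHL proteins 5 rose and 5 fell by the authors' deposited table (median log2 fold 0.05). Both counts are near the shares of all tested protein-coding genes, 26.4% enriched and 26.1% depleted. Of these 18 genes, the 3 with the smallest p all fell, EIF4EBP1 at -1.89, PEF1 at -1.20 and SEC31A at -0.84 by the authors' deposited table. No difference between these lists was tested.

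**Figure D3:**
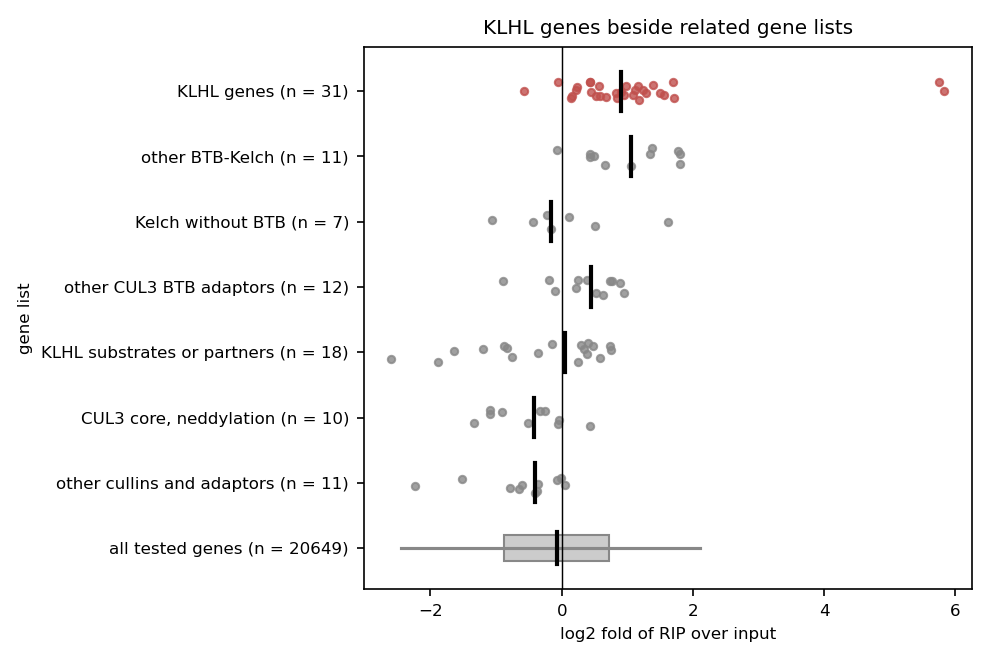
Log2 fold of RIP over input from the authors' deposited table (x axis) for each tested gene of the KLHL family and of 6 related lists (points, with the median as a black bar), and for all tested genes (box from the 25th to the 75th percentile, line from the 5th to the 95th, median bar). The KLHL median is 0.90 and that of other BTB-Kelch genes 1.06, while the CUL3 core and the other cullins have -0.42 and -0.40; the 2 KLHL points above 5 are KLHL4 and KLHL1, which have no input read.

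The deposited mean was taken over 9 libraries, so the mean of the 3 libraries without a column could be derived from it, with no SD. All 18 enriched members had a higher RIP mean than this derived mean, by 0.14 to 2.77 on the log2 scale (median 1.06). They were called on the same RIP values, so this is no separate evidence of enrichment, and the share over all genes was not counted. Summed over the members the derived mean came to 38259 normalized counts, against 66681 ± 4317 in RIP and 38280 ± 2877 in the compared inputs (SD, n = 3 each). Single members differed more between the sets of libraries. KLHL3 had 379 in the derived mean, against 114 ± 34 in the compared inputs (SD, n = 3), and the log2 ratio of its RIP mean to the derived mean was -1.21. KLHL25 had 330 in the derived mean, against 158 ± 61 in the compared inputs, and a log2 ratio of 0.32 in place of 1.38. KLHL42 had 1773, against 1086 ± 152 in the compared inputs, and a log2 ratio of 0.14 in place of 0.84. KLHL28 and KLHL31 went the other way, with derived means of 663 and 23.0 and log2 ratios of 2.10 and 2.77. KLHL5, the depleted member, also had a lower derived mean, 1260 against 1708 ± 214 in the compared inputs (SD, n = 3). The log2 ratio of its RIP mean to the derived mean was -0.13 in place of -0.57. The remaining libraries have no values of their own here, so these differences were not tested.

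**Figure D4:**
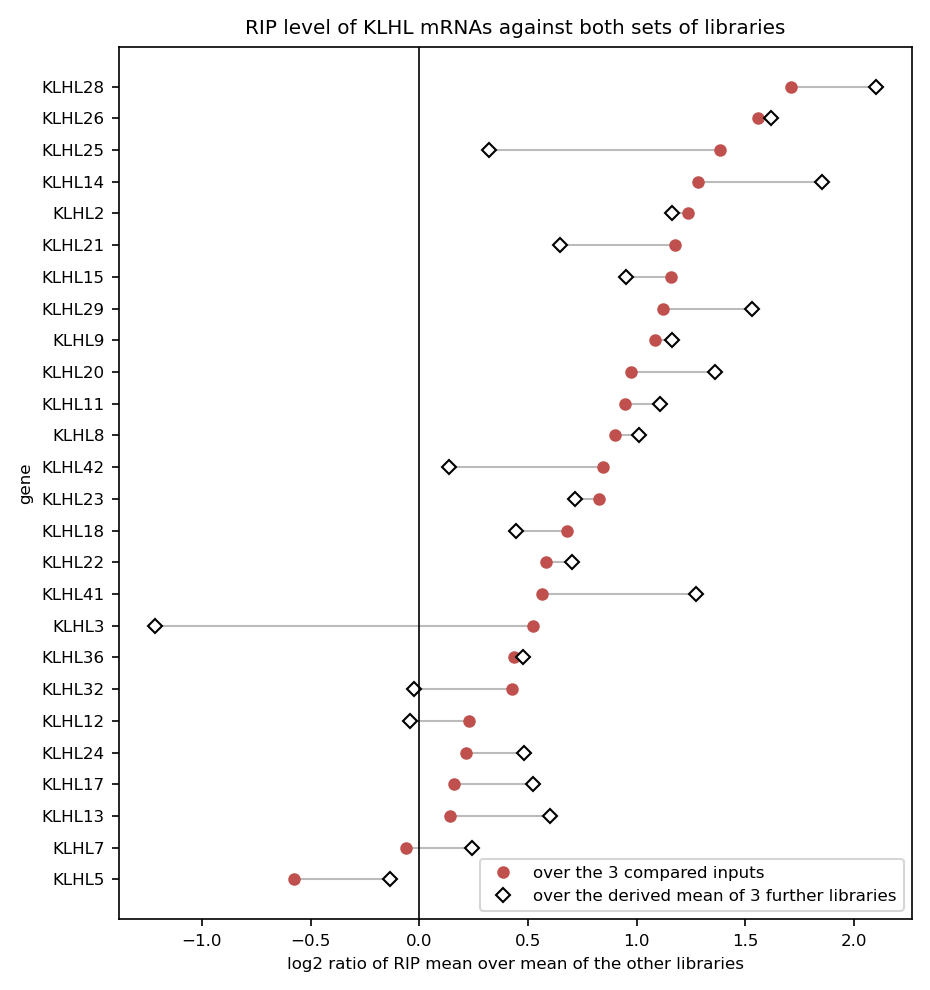
Log2 ratio of the RIP mean over the 3 compared inputs (circles) and over the derived mean of the 3 further libraries (diamonds) for the 26 KLHL genes with a mean of at least 100 normalized counts; both share the RIP libraries. All 17 enriched genes shown, which were called on the same RIP values, lie above 0 on both, and KLHL3 has 0.52 and -1.21.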

How the data were processed

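Per the submitters' processing notes, STAR, featureCounts and DESeq2 were used with the build GRCh38. The sources used here give no version, annotation, strand setting or filter. The deposited signal per library is the gene count over that library's size factor. All values (100%) were whole multiples of 1 step per column within 0.01 of a read, so whole reads were recovered. The log2 folds, their SEs, and the p-values with their adjusted p-value were deposited by the authors (DESeq2, per the submitters' processing notes). For 96.3% of tested genes with reads in both groups the deposited log2 fold lay within 0.01 of the log2 ratio of the column means.

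The 3 input columns were mapped to the input group only. A gene counted as tested where it had an adjusted p, and calls used 0.05. edgeR 4.0.16, DESeq2 1.42.0 and limma 3.58.1, checked on simulated counts, gave alternatives on recovered reads or on log2 values with a pseudocount of 1 or 5. The simulation changed few genes and kept the groups otherwise alike, unlike these data, so it does not check the scaling. The mean of the 3 libraries without a column is 9 times the deposited mean signal less the 6 columns, over 3. No pair of libraries within RIP or within input differed by sampling noise alone (chi-square per degree of freedom 32.1 to 92.5). Reads were scaled to library totals there, so differing mitochondrial shares enter these values. Floors of 3 reads (0.0736 to 0.0808 CPM) cover counting error only, since reads lacking molecular identifiers need not be separate molecules. Positions come from RefSeq GRCh38.p14, in which all 35 symbols matched. Every member is named, ordered by role, and of each list the 3 genes with the smallest p. KEAP1, CUL3 and the values of other list genes were chosen after they were seen. Members and lists were chosen with earlier results of these data known.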

Additional observations from a re-analysis of the deposited data

Results flagged for a closer look

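Both members without a read in the 6 libraries had counts in the 3 libraries known only through the deposited mean. Their derived sums over those libraries were 11.4 normalized counts for KLHL40 and 4.59 for KLHL35. A count of 0 allows 3 reads in a library, and spread evenly over these libraries the KLHL35 sum would stay under that limit. Which of the labelled input libraries they came from is not known here.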

How the results depend on the processing

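The number of enriched members was 18, and 16 to 25 over the alternatives run. It was 16 to 17 with each library left out in turn (DESeq2 refitted), 17 with edgeR, with limma at a pseudocount of 1, at a mean of at least 100 and at an adjusted p under 0.01, and 18 with DESeq2 refitted on 6 libraries, with limma at a pseudocount of 5 and with p adjusted over all genes with a p. The enriched members in these fits were all among the 18, and those lost were KLHL22, KLHL31 and KLHL36. Scaling without small and mitochondrial RNA genes, which adds 0.13 to each fold, gave 19 by adding KLHL12. The depleted member, KLHL5, was called in every setting with a count except total-count scaling, which gave 0. The median log2 fold, 0.90, was 1.39 when scaled by total counts and 1.03 in the scaling that leaves out small and mitochondrial RNA. It was 0.784 to 0.997 with a library left out, 0.88 over all 6 inputs of the deposited mean and 0.81 with shrunken folds. KLHL7 turned to 0.44 under total-count scaling. Shrunken folds and all 6 inputs give no new test, so no count. Depth limits members with few reads: KLHL1, KLHL4, KLHL10 and KLHL30 have SEs of 1.47 to 3.91 on the log2 scale, too wide to tell enrichment from none. The RIP and input columns share replicate numbers. Over 12402 genes the deviations of same-numbered columns from their group means correlated at 0.25, 0.003 and 0.23. RIP replicate 1 and the third input column correlated at -0.22, and RIP replicate 3 and the first input column at -0.25. The second input column correlated at 0.003 with RIP replicate 2 and 0.02 with replicate 3. For each gene the deviations within a group sum to 0, so these correlations are not separate results. Those with a column numbered 2 were near 0, and the rest reflect 1 contrast between numbers 1 and 3. Whether the numbers pair the libraries is thus not settled. With the replicate block edgeR gave 17 enriched members, 1 depleted and a median log2 fold of 0.84, where edgeR without it gave 17, 1 and 0.84.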
